A study of Rattus norvegicus with 40 samples.

Results

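Txnip, Arrdc2, Arrdc3 and Arrdc4 encode alpha-arrestins, a family of adaptor proteins with arrestin folds, and their transcripts were followed through ischemia and ischemia with reperfusion in cultured neonatal rat heart muscle cells. The members were all probe sets that the platform annotation assigns to 1 of these 4 symbols: 5 of the 31042 probe sets measured, and 4 of 14217 named genes. Txnip, Arrdc2 and Arrdc4 had 1 probe set each and Arrdc3 had 2. Of the 5 probe sets, 4 (3 genes) passed the filter on dim probe sets, a mean log2 intensity above 6.48; Arrdc2, with a mean of 6.12, did not. The genes were chosen by their measured pattern in these same arrays, with the values of Txnip and Arrdc4 in ischemia+reperfusion known. Their values, standard errors and intervals are therefore given as a description with no test.

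Txnip, the thioredoxin-interacting protein, binds reduced thioredoxin and promotes the internalisation of glucose transporters from the cell surface, so that it restrains glucose uptake. Its transcription is controlled by the glucose-sensing pair MondoA (Mlxip) and Mlx, which respond to glucose-6-phosphate, and the transcript and protein are short-lived. Arrdc4, its close relative, is controlled by the same pair and also restrains glucose uptake. Arrdc2 and Arrdc3 belong to the same family, whose members recruit ubiquitin ligases of the NEDD4 family to membrane cargo, and Arrdc3 acts on the beta-2-adrenergic receptor. In heart muscle, Txnip is known as a link between nutrient supply, redox state and growth.

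The cells were ventricular myocytes isolated from newborn rats in 2 cell preparations, and their total RNA was measured on 40 Affymetrix rat arrays. Ischemia was coverslip hypoxia: a coverslip over the cell layer limits oxygen and medium. One arm received ischemia and the other ischemia+reperfusion, each with labelled times of 0, 10, 30, 60 and 120 min, so there were 10 groups of 4 arrays, duplicates 1 and 2 of preparations 1 and 2. All groups share the cell type and the culture model, no allele or drug is named in any label, and no label states the length of reperfusion, what the minutes cover, what was done to the 0 min dishes, or whether duplicates were separate cultures. In such bulk RNA, fewer cells of a type and less RNA per cell cannot be told apart.

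All levels below are log2(intensity + 16) after normalization between arrays, and a difference is between log2 levels, with its standard error (SE) from a limma fit over the 18625 probe sets tested, n = 2 preparations a group. Levels of different genes are not compared, since each probe set has its own response. The 14 measured markers of heart muscle cells were all above the filter, and their summed intensity ran from 117352 to 132466 over the arrays. Summed intensities ran from 34062 to 47864 for 11 fibroblast markers, from 18009 to 26664 for 7 smooth muscle markers, from 1874 to 3394 for 8 endothelial markers (6 above the filter) and from 4218 to 7815 for 13 macrophage and leukocyte markers (11 above the filter). The 2 erythroid markers measured were both below the filter, with sums of 27.9 to 511. The cultures thus had strong muscle markers and measurable markers of the other cell types. Some arrays stood apart. In preparation 2, duplicate 1 of ischemia+reperfusion at 10 min resembled the 0 min arrays of the arm (correlation of centred values 0.43) more than its own group (0.11). Also in preparation 2, duplicate 2 of ischemia and duplicate 1 of ischemia+reperfusion at 120 min each correlated more with another group (0.29 and 0.44) than with their own (0.09 and 0.14). The 0 min ischemia array of preparation 1, duplicate 1, had the lowest median correlation with the other arrays, 0.872. More widely, 21 of the 40 arrays correlated more with another group than with the rest of their own, among them 3 of the 4 arrays of ischemia+reperfusion at 30 min. Of these, preparation 1, duplicate 1, was nearest to the 10 min group (0.27, against 0.12 with its own), and preparation 1, duplicate 2, and preparation 2, duplicate 1, were nearest to the 60 min group (0.22 and 0.34, against 0.12 and 0.14). All arrays were kept under their labels.

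Arrdc2, Arrdc3 and Arrdc4 had a RefSeq promoter sequence in the tables used (build GRCr8), and these are shown because MondoA and Mlx act through E-box elements and because the members differ in them. The capitals mark the E-box CACGTG and the CCAAT box, a general promoter element, on either strand (ATTGG is CCAAT on the other strand). The windows are the bases before the annotated start: chr1:131793439-131793675 on the minus strand for Arrdc4 (237 bases, with 13 further bases of the window left out because they lie within the outermost transcript), chr2:12872952-12873201 on the plus strand for Arrdc3 (250 bases) and chr16:18635633-18635882 on the plus strand for Arrdc2 (250 bases).
Arrdc4: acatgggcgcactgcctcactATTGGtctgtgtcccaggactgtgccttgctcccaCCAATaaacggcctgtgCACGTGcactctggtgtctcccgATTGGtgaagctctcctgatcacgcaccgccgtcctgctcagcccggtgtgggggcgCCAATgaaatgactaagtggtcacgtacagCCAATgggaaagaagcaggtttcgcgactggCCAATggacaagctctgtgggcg
Arrdc3: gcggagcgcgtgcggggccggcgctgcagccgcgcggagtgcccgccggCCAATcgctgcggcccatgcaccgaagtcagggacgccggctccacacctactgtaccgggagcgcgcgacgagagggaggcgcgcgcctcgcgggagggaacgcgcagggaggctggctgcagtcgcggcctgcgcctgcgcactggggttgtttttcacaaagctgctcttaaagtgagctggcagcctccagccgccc
Arrdc2: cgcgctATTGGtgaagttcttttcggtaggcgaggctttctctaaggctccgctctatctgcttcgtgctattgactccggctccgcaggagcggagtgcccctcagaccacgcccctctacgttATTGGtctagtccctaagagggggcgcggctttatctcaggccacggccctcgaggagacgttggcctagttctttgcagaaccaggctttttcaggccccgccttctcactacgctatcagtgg

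The Arrdc4 window held 1 E-box and 6 CCAAT boxes. The E-box lay at positions -177 to -172 counted from the end of the full 250 bases, which include the 13 left out of the sequence shown. Of 33469 promoters searched over windows of 250 bases, 5.59% held the E-box and 34.0% held a CCAAT box, and 11 promoters (0.0329%) held 6 or more CCAAT boxes. The count of 6 was singled out after it was seen. Arrdc2 held 2 CCAAT boxes and Arrdc3 held 1, and neither held the E-box. The hypoxia core ACGTG occurred 3 times in Arrdc4, with 2 of these inside the E-box on its opposite strands, against 16.6% of promoters with at least 1. The letters of a tandem carbohydrate response element (CACG, any base and G, repeated with 5 bases between, found in 0.0269% of promoters), of the forkhead core GTAAACA (3.21%) and of the glucocorticoid receptor core TGTTCT (17.5%) were not in the 3 windows. A match or its absence describes the letters of a window alone.

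Txnip (probe set 1371131_a_at) stood highest, and closest together, at 0 min of ischemia+reperfusion. There its log2 levels were 12.09 and 12.10 in preparation 1 and 12.08 and 12.05 in preparation 2 (mean 12.08, SD 0.02). At 10 min of that arm the levels were 10.94, 10.99, 12.01 and 11.26 in the same order, and at 30 min they were 11.01, 10.76, 11.19 and 11.05. All 8 of these arrays lay below all 4 of the 0 min arrays of their arm, and nothing is read from that since the member was chosen by this pattern. In these comparisons 0.0376% (10 min) and 0.784% (30 min) of all probe sets passed the limma test. That test is another criterion than groups of arrays that do not overlap. The share of all probe sets with such groups was not counted, here or below. At 60 min the arrays spread widely, 10.52 and 11.68 in preparation 1 and 11.41 and 12.49 in preparation 2, and at 120 min they were 11.98, 11.01, 11.87 and 12.50. At both times 3 of the 4 arrays lay below the 0 min range and 1, preparation 2, duplicate 2, lay above it.

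The Txnip level was thus 0.78 log2 units lower at 10 min than at 0 min of ischemia+reperfusion (difference -0.78 ± 0.21 SE, 95% interval -1.25 to -0.31). At 30 min the difference was -1.08 ± 0.21 (-1.55 to -0.61), which is a level 2.11-fold lower. It was -0.56 ± 0.21 (-1.03 to -0.09) at 60 min and -0.24 ± 0.21 (-0.71 to 0.23) at 120 min. The lowest group mean was therefore at 30 min, but the intervals at 10 and 30 min overlap and these times were not compared. The interval at 120 min includes 0. The late values depended on single arrays: with any 1 left out, the 60 min difference ran from -0.85 (without preparation 1, duplicate 2, at 60 min) to -0.27 (without duplicate 1 of that preparation), and the 120 min difference from -0.48 (without preparation 1, duplicate 1, at 120 min) to 0.0046 (without duplicate 2). Without the 10 and 30 min arrays of preparation 2, duplicate 1, the differences at these times were -0.97 and -1.11, and with any 1 array left out the 10 min difference ran from -0.97 to -0.59. Markers of fibroblasts had a median difference of -0.11 at 30 min, and those of heart muscle cells and macrophages had -0.00 and -0.04, with 0 called by limma; their part in the result was not tested.

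In the ischemia arm, Txnip had no such low point. Its levels at 0 min were 11.00 and 11.72 in preparation 1 and 11.28 and 11.30 in preparation 2. They were 11.02, 10.84, 11.65 and 11.36 at 10 min and 10.73, 11.33, 11.53 and 11.82 at 30 min. The groups overlapped at every time. At 60 min the levels were 11.66, 11.20, 11.50 and 12.04, and at 120 min they were 11.60, 11.20, 12.16 and 10.78. Differences from 0 min were -0.11, 0.03, 0.28 and 0.11 at 10, 30, 60 and 120 min, each with an SE of 0.21 and an interval that includes 0. The value at 120 min was -0.10 on the deposited scale, -0.07 without the outlying 0 min array and 0.46 without the pair of 120 min arrays out of place, and leaving out preparation 2, duplicate 1, at 120 min gave -0.23, so its direction changed with these choices.

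The 0 min groups themselves differed. Txnip was 0.76 ± 0.21 higher at 0 min of ischemia+reperfusion than at 0 min of ischemia (0.29 to 1.23), with all 4 arrays above all 4, where 0.333% of all probe sets passed the limma test. Between the arms at 10, 30, 60 and 120 min the differences were 0.08, -0.35, -0.08 and 0.41 (SE 0.21), and the groups overlapped at each of these times. With any 1 array left out, the 0 min difference ran from 0.58 to 0.93 and the 30 min difference from -0.50 to -0.20, while those at 10 and 60 min changed sign and the 120 min difference ran from 0.061, without ischemia preparation 2, duplicate 2, to 0.75. Set against the mean of both 0 min groups, a choice added after the values were seen, the ischemia+reperfusion differences of Txnip were -0.40 at 10 min, -0.70 at 30 min, -0.18 at 60 min and 0.14 at 120 min. The depth of the low point thus depended on which dishes served as 0 min. At 0 min the arms also differed by a median of 0.18 over 11 fibroblast markers, 0.20 over 11 macrophage and leukocyte markers, 0.13 over 6 endothelial markers, -0.07 over 14 heart muscle markers and -0.09 over 7 smooth muscle markers, with 0 called by limma. Whether cell makeup took part in the 0 min difference was not tested.

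**Figure D1:**
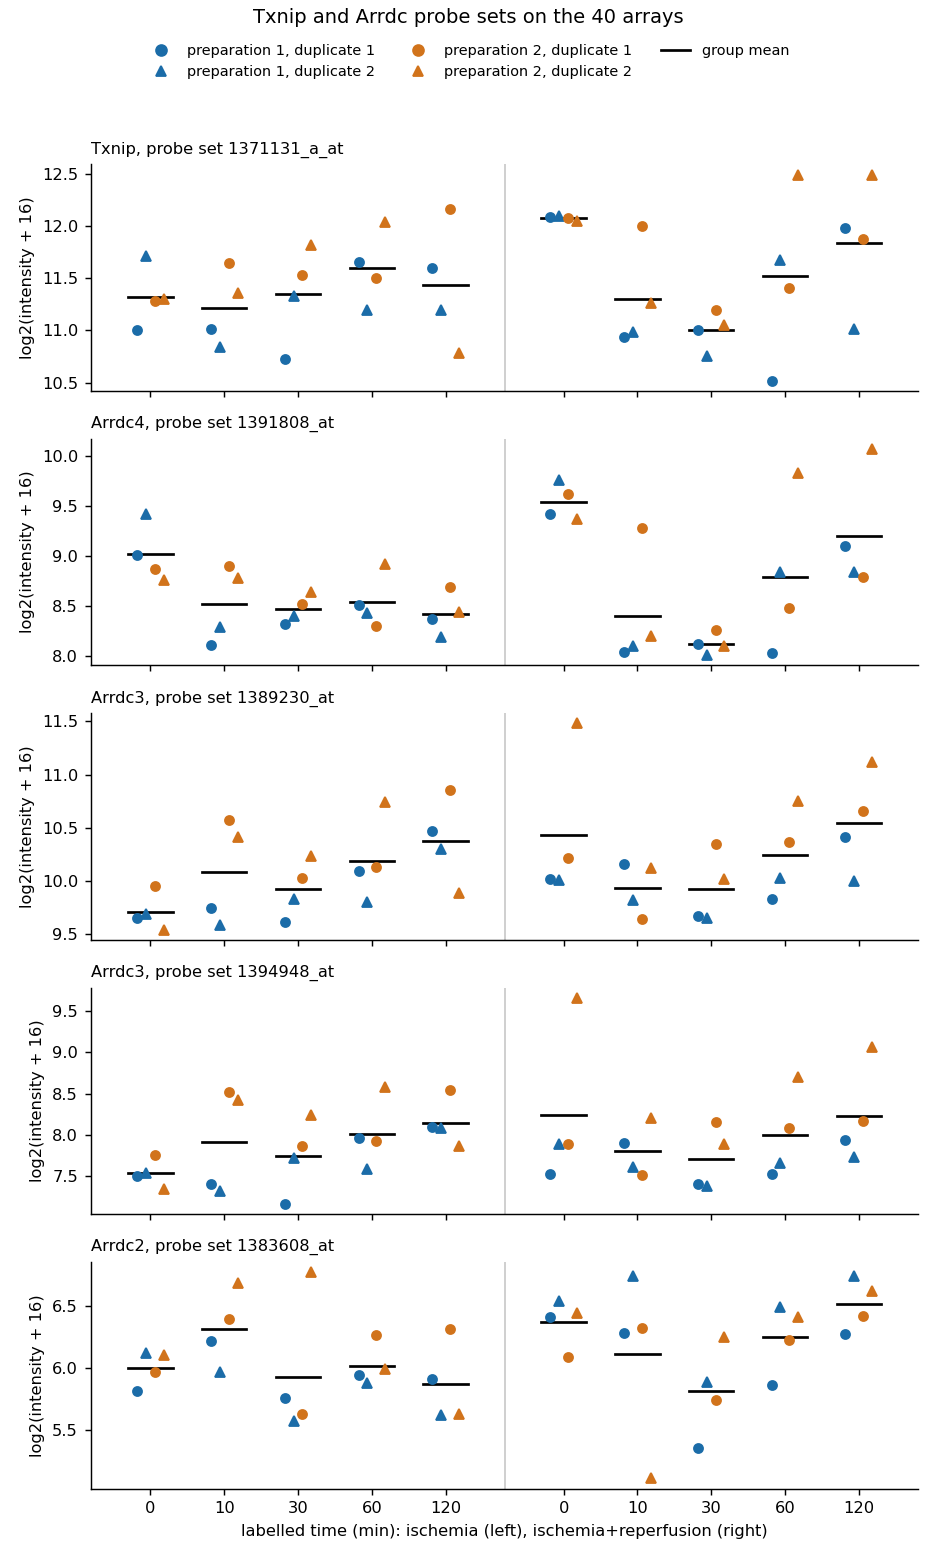
Log2(intensity + 16) of each of the 5 probe sets on the 40 arrays, by labelled time, for ischemia (left) and ischemia+reperfusion (right); points are arrays, coloured by preparation and shaped by duplicate, and bars are group means. Txnip and Arrdc4 lie together at high levels at 0 min of ischemia+reperfusion and lower on all 4 arrays at 30 min.

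Arrdc4 (probe set 1391808_at) had its lowest group mean at the same labelled time. At 0 min of ischemia+reperfusion its levels were 9.41 and 9.75 in preparation 1 and 9.62 and 9.37 in preparation 2. At 10 min they were 8.04, 8.10, 9.27 and 8.20, and at 30 min 8.12, 8.01, 8.27 and 8.10. All 8 arrays lay below the 0 min range, and the highest of them, 9.27, was the array that correlated with the 0 min group. At 60 min the levels were 8.04, 8.84, 8.48 and 9.82, and at 120 min 9.10, 8.84, 8.79 and 10.07. As for Txnip, preparation 2, duplicate 2, was the array above the 0 min range at both late times.

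The differences of Arrdc4 from 0 min of ischemia+reperfusion were -1.14 ± 0.23 (-1.64 to -0.63) at 10 min and -1.42 ± 0.23 (-1.92 to -0.91) at 30 min. The latter is a level 2.67-fold lower. They were -0.75 ± 0.23 (-1.25 to -0.24) at 60 min and -0.34 ± 0.23 (-0.85 to 0.16) at 120 min. The 10 min value was -1.40 without the array that correlated with the 0 min group and -0.87 without duplicate 2 of that preparation. The former is close to the 30 min value, so 10 and 30 min are not separated as the lowest time. With any 1 array left out, the 60 min value ran from -1.08, without preparation 2, duplicate 2, to -0.41, without duplicate 1, and the 120 min value from -0.66 to -0.022 with the same arrays of that time left out. Against the mean of both 0 min groups the values were -0.87, -1.15, -0.48 and -0.08. Arrdc4 thus also lay below the joint baseline at 10 and 30 min.

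Unlike Txnip, Arrdc4 also lay below its own 0 min level through the ischemia arm. Its 0 min levels there were 9.01 and 9.42 in preparation 1 and 8.87 and 8.76 in preparation 2. They were 8.11, 8.29, 8.90 and 8.78 at 10 min, 8.33, 8.40, 8.52 and 8.64 at 30 min. At 60 min they were 8.51, 8.43, 8.30 and 8.92, and at 120 min 8.37, 8.19, 8.69 and 8.44. The 30 and 120 min arrays all lay below the 0 min range, and the 10 and 60 min arrays overlapped it. Of all probe sets, 0.0966% passed the limma test at 30 min and 12.9% at 120 min of ischemia. The differences were -0.49, -0.54, -0.48 and -0.59 at 10, 30, 60 and 120 min (SE 0.23), with 95% intervals that reached from -1.10 to 0.03. They lay closer to each other than 1 SE. Whether Txnip and Arrdc4 differ in this arm was not tested.

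Between the arms, Arrdc4 was 0.52 ± 0.23 higher at 0 min of ischemia+reperfusion (0.02 to 1.03; 2 of 4 arrays above the ischemia range). At 10, 30 and 60 min the differences were -0.12, -0.35 and 0.25 (SE 0.23). At 30 min all 4 ischemia+reperfusion arrays lay below all 4 ischemia arrays, and at 120 min all 4 lay above them, with a difference of 0.78 ± 0.23 (0.27 to 1.28). With any 1 array of these groups left out the latter ran from 0.46, without ischemia+reperfusion preparation 2, duplicate 2, to 1.09, and without the pair of 120 min arrays out of place it was 1.03. Leaving out 1 array moved the 10 min difference from -0.39 to 0.15 and the 60 min difference from -0.082 to 0.59, so these had no fixed direction. Between the arms 0.532% of all probe sets passed the limma test at 30 min and 0% at 120 min. The sign of the difference between the arms for Arrdc4 thus differed between 30 and 120 min. The 30 min interval, -0.85 to 0.16, includes 0, and the change between these times was not tested.

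**Figure D2:**
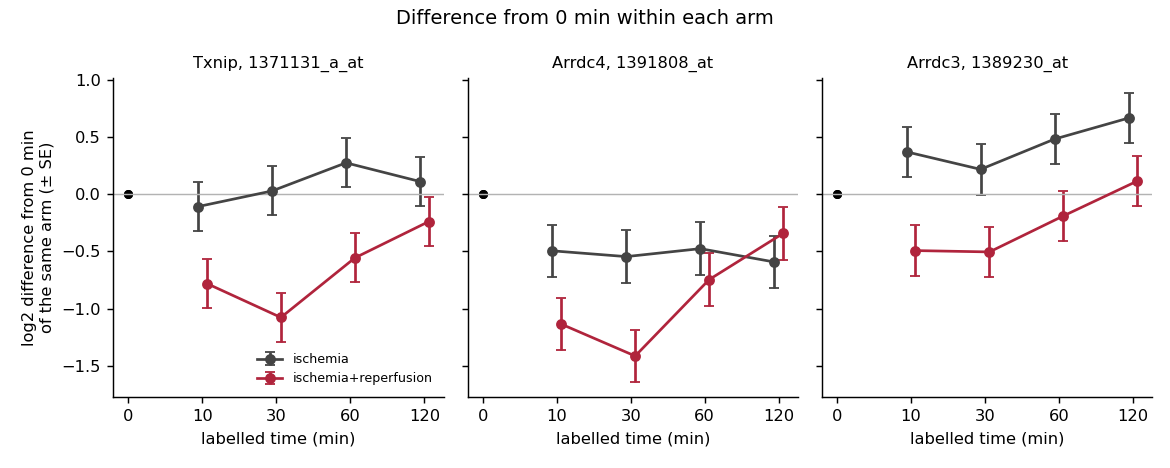
Log2 difference from 0 min of the same arm (vertical axis; bars are ± 1 SE from the limma fit) against the labelled time in min (equally spaced, not to scale), for Txnip, Arrdc4 and the brighter Arrdc3 probe set. In ischemia+reperfusion the lowest values are -1.08 for Txnip and -1.42 for Arrdc4, both at 30 min, while Arrdc3 in ischemia lies above 0 throughout.

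Arrdc3 differed in its course. On the brighter of its probe sets (1389230_at) the ischemia levels were 9.65, 9.69, 9.95 and 9.54 at 0 min and 10.47, 10.30, 10.85 and 9.89 at 120 min, in the order preparation 1, duplicates 1 and 2, then preparation 2. At 120 min 3 of the 4 arrays lay above the 0 min range, and the array within it was the one out of place. At 10 min the levels were 9.75, 9.59, 10.58 and 10.41, at 30 min 9.62, 9.83, 10.03 and 10.23, and at 60 min 10.09, 9.80, 10.14 and 10.74. Differences from 0 min were 0.37, 0.22, 0.48 and 0.67 (SE 0.22), with an interval of 0.19 to 1.15 at 120 min. With any 1 array left out the latter ran from 0.43, without the 120 min array of preparation 2, duplicate 1, to 0.91, without duplicate 2 of that preparation, the array out of place. Markers of other cell types also moved in this comparison. By limma 4 of 6 endothelial markers (median 0.47), 2 of 11 fibroblast markers (median 0.12) and 1 of 7 smooth muscle markers (median 0.04) were called higher and 0 lower, and 0 of 14 heart muscle markers and 0 of 11 macrophage and leukocyte markers (median 0.21) were called. Their part in the Arrdc3 value was not tested.

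In ischemia+reperfusion, the Arrdc3 levels at 0 min were 10.02 and 10.01 in preparation 1 and 10.22 and 11.48 in preparation 2. The last array decided the group mean. At 10 min the levels were 10.16, 9.82, 9.65 and 10.12, at 30 min 9.68, 9.66, 10.35 and 10.02, at 60 min 9.83, 10.02, 10.36 and 10.75, and at 120 min 10.41, 10.00, 10.66 and 11.12. Differences from 0 min were -0.49, -0.50, -0.19 and 0.12 (SE 0.22). Without the high 0 min array they were -0.18, -0.19, 0.13 and 0.43, and without duplicate 1 of that preparation they were -0.81, -0.82, -0.50 and -0.20. The dip of Arrdc3 at 10 and 30 min therefore rested largely on 1 array. With any single 0 or 30 min array left out, the 30 min differences stayed from -1.14 to -1.01 for Txnip and from -1.50 to -1.33 for Arrdc4. Txnip and Arrdc4 were chosen by this pattern, so their narrower ranges are not read as a difference from Arrdc3. The difference between the arms at 0 min was 0.72 ± 0.22 with all 4 arrays above the ischemia range, and ran from 0.41 without that array to 1.04 without duplicate 1 of that preparation.

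The dimmer Arrdc3 probe set (1394948_at) gave the same course. Its levels at 0 min of ischemia+reperfusion were 7.53 to 7.89 on 3 arrays and 9.66 on preparation 2, duplicate 2, the same array as on the brighter probe set. Its difference at 120 min of ischemia was 0.61 ± 0.25 (0.06 to 1.16), with all 4 arrays above all 4 at 0 min. Its differences in ischemia+reperfusion were -0.43, -0.53, -0.25 and -0.01 at 10, 30, 60 and 120 min. Over the 10 group means the probe sets of Arrdc3 correlated by 0.985, and over the deviations of the 40 arrays from their group means by 0.964.

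Arrdc2 (probe set 1383608_at) was dim, with group means of 5.81 to 6.51 and intensities from 18.5 to 93.0, and its fold differences are understated on this scale. Its differences were read from a fit without the filter (SE 0.26). In ischemia they were 0.31, -0.07, 0.02 and -0.13 at 10, 30, 60 and 120 min, and in ischemia+reperfusion -0.25, -0.56, -0.12 and 0.15. The lowest group mean, 5.81, was at 30 min of ischemia+reperfusion, close to 5.87 at 120 min of ischemia. At 30 min of ischemia+reperfusion 3 of 4 arrays lay below the 0 min range. The interval of the difference from 0 min (-1.14 to 0.03) includes 0. At 120 min Arrdc2 was 0.64 ± 0.26 higher in ischemia+reperfusion than in ischemia (0.06 to 1.23), with 3 of 4 arrays above the ischemia range.

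Across the 10 groups, the order of the Txnip means ran from 11.00 at 30 min of ischemia+reperfusion to 12.08 at 0 min of that arm, with the other 8 between 11.22 and 11.84. Neighbours in this order differed by no more than 0.24, where the SE of a difference between group means was 0.21. For Arrdc4 the order ran from 8.12 at 30 min of ischemia+reperfusion to 9.54 at 0 min of that arm, and 0 min of ischemia had 9.02. Arrdc3 ran from 9.71 at 0 min of ischemia to 10.55 at 120 min of ischemia+reperfusion, and in its lowest group Txnip had a mean of 11.32.

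By the limma test over all 18625 probe sets (adjusted p under 0.05), the calls of the 4 member probe sets tested were 2 lower and 0 higher at 30 min of ischemia+reperfusion, Txnip and Arrdc4. In that comparison 0.784% of all probe sets were called, 0.376% lower and 0.408% higher. Since the members were chosen by this contrast, nothing is read from the count. The call was not stable: 1 was called with each array scaled to the common median, with a pseudocount of 4 or without the outlying 0 min ischemia array, and 0 without the preparation as a replicate block, without the filter or without the 120 min pair. It was also 1 without the 0 min array of preparation 2, duplicate 1, or the 30 min arrays of duplicate 2 of either preparation. In the other 12 comparisons of a time with 0 min or of the arms, 0 of 4 were called, with 0 to 4 at an unadjusted p under 0.05. The shares of all probe sets called in these were 1.98% at 10 min, 0.0966% at 30 min, 0.129% at 60 min and 12.9% at 120 min of ischemia. They were 0.0376% at 10 min, 4.69% at 60 min and 7.17% at 120 min of ischemia+reperfusion, and 0.333%, 0%, 0.532%, 5.38% and 0% between the arms at 0, 10, 30, 60 and 120 min, where the counts of 0 at 10 and 120 min stood beside 1860 and 1333 probe sets at an unadjusted p under 0.05. The change over 120 min differed between the arms by -0.35 ± 0.30 for Txnip, -0.55 ± 0.31 for Arrdc3 and 0.25 ± 0.33 for Arrdc4, each interval including 0.

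Arrays of the same group differed widely in these genes, and Txnip and Arrdc4 differed together. The SD between arrays of a group was 0.47 for Txnip, 0.41 for Arrdc4, 0.41 and 0.52 for the Arrdc3 probe sets and 0.37 for Arrdc2, where the median over all tested probe sets was 0.18. Of the tested probe sets, 93.7% had a smaller SD than Txnip and 90.9% a smaller SD than Arrdc4. Preparation 2 had the higher mean in 8 of 10 groups for Txnip (by 0.40 on average), Arrdc4 (0.27), Arrdc2 (0.10) and the brighter Arrdc3 probe set (0.43).

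Over the deviations of the 40 arrays from their group means, Txnip and Arrdc4 correlated with r = 0.819 (Spearman rho = 0.769). No other tested probe set (0 of 18625, leaving out these 2) correlated with Txnip at or above this value, where the median correlation was 0.01. Without the 2 arrays farthest from the Txnip median r was 0.745 (38 arrays), and without the widely spread 60 and 120 min ischemia+reperfusion groups it was also 0.745 (32 arrays). These points share preparation and array, so the correlation describes these arrays and carries no test. Txnip and the brighter Arrdc3 probe set correlated with 0.600, Txnip and Arrdc2 with 0.328, and Arrdc3 and Arrdc4 with 0.393. Over the 10 group means the values were 0.857 for Txnip with Arrdc4, 0.760 with Arrdc3 and 0.665 with Arrdc2. The likeness of Txnip and Arrdc4 was thus present within groups as well as between them. The likeness between groups includes the pattern by which these genes were chosen, so nothing is read from it. The likeness within groups comes from the same arrays and is not free of that pattern, so nothing is read from it either. The 10 min ischemia+reperfusion array that resembled 0 min deviated by 0.71 for Txnip and 0.87 for Arrdc4. Both smaller sets of arrays kept it.

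**Figure D3:**
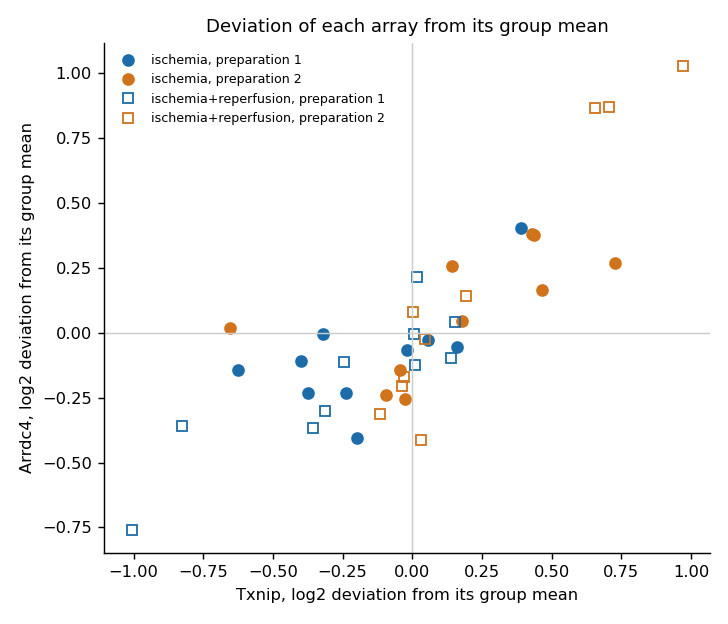
Deviation of each of the 40 arrays from its group mean (log2) for Txnip (horizontal) and Arrdc4 (vertical), by arm (filled or open) and preparation (colour). The points run along a rising diagonal, r = 0.819, from preparation 1, duplicate 1, at 60 min of ischemia+reperfusion at the lower left to arrays of preparation 2 at the upper right.

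The tested genes with group means most like those of Txnip were Mpv17l2, a mitochondrial protein (r = 0.905 over 10 groups), Ccdc90b (0.898), Rarres1 (0.894), Vkorc1, a vitamin K epoxide reductase (0.890), and Zfp652 (0.872). Their group means spanned small ranges, such as 9.42 to 9.66 for Mpv17l2, where those of Txnip spanned 11.00 to 12.08. The most opposite were Rab11fip5, a Rab11 effector of recycling endosomes (-0.920), Mypop (-0.891) and Mtor, the growth kinase (-0.885). The genes most like Arrdc4 were Ttc39a (0.925), Lpin1, a phosphatidate phosphatase (0.919), and Meis1, a homeobox factor (0.909). Lpin1 was highest at 0 min of ischemia+reperfusion, 8.67, and 8.03 at 30 min of that arm. Those most like Arrdc3 were Slc66a2 (0.966), Sub1 (0.964) and the amino acid transporter Slc43a2 (0.922), and those most like Arrdc2 were Sesn1, a sestrin (0.909), Uba6, a ubiquitin-activating enzyme (0.878), and Mreg (0.858). These were picked as the highest of 14311 named probe sets, so they rank genes and test nothing.

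Of the genes upstream of Txnip, the Mondo, Max and Mlx network, few passed the limma test, which does not show that the others were unchanged. Mlxip, which encodes MondoA, had group means of 8.35 to 8.79, and its difference at 30 min of ischemia+reperfusion was -0.22 ± 0.09 (limma adjusted p = 0.273). Mlx, its partner, ranged from 10.34 to 10.58 and differed there by 0.02 ± 0.06 (adjusted p = 0.938). Mlxipl, the related sensor ChREBP, was below the filter. Of 10 tested members of the network, 0 were called at 30 min of ischemia+reperfusion with limma (3 at an unadjusted p under 0.05). There 0.784% of all probe sets were called, and 2751 of 18625 had an unadjusted p under 0.05. At 120 min of ischemia+reperfusion 1 of 10 rose, where 3.5% of all probe sets were called higher: Mxd1, a Max-binding repressor, by 0.77 ± 0.20 (adjusted p = 0.0419, and 0.0524 with no block). Max, the shared partner, was higher in ischemia+reperfusion than in ischemia at 30 min (0.43 ± 0.07, adjusted p = 0.0255) and at 60 min (0.31 ± 0.07, adjusted p = 0.0288, and 0.0551 with no block). It was the 1 of 10 called at each of these times, where 0.532% and 5.38% of all probe sets were called. Leaving out single arrays ended these calls, for Mxd1 the 0 min array of preparation 2, duplicate 1, or the 120 min array of preparation 2, duplicate 2 (adjusted p up to 0.195), and for Max an ischemia array, preparation 1, duplicate 2, at 30 min (0.0752) or that array or preparation 2, duplicate 1, at 60 min (up to 0.108).

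Among genes of glucose entry and carbohydrate response, 9 of 25 tested rose and 0 fell at 120 min of ischemia, where 6.45% of all probe sets were called higher and 6.48% lower. The list's median was 0.31, against -0.00 over all tested. In the same comparison 4 of 6 endothelial, 2 of 11 fibroblast and 1 of 7 smooth muscle markers were called higher, and their part in the list's change was not tested. Pfkfb3, which makes the activator of phosphofructokinase, rose by 1.69 ± 0.23 (adjusted p = 0.00413), and Slc2a3, the glucose transporter GLUT3, by 1.29 ± 0.17 (adjusted p = 0.00367). At 120 min of ischemia+reperfusion 7 of 25 rose and 0 fell, against 3.5% of all probe sets called higher and 3.68% lower, with a median of 0.28 against -0.02. Of the markers, 1 of 14 of heart muscle cells was called higher there, and 1 of 11 of fibroblasts and 1 of 11 of macrophages and leukocytes were called lower. There Slc2a3 rose by 1.18 ± 0.17 (adjusted p = 0.00742) and Pdk1, a pyruvate dehydrogenase kinase, by 1.17 ± 0.32 (adjusted p = 0.0494, and 0.0817 with no block). The Pdk1 call was also lost when any of 4 single arrays was left out, at 0 min duplicate 2 of preparation 1 or duplicate 1 of preparation 2, and at 120 min duplicate 1 of preparation 1 or duplicate 2 of preparation 2 (adjusted p up to 0.067). Over the 8 lists described here, with 122 tested genes, 19 rose and 2 fell at 120 min of ischemia and 17 rose and 2 fell at 120 min of ischemia+reperfusion. On the deposited scale, where the median of all probe sets shifted to -0.22 and -0.12, the counts were 8 and 9, and 3 and 0. With each array scaled to the common median they were 16 and 1, and 13 and 4.

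The group means of Txnip and Arrdc4 were lowest at 30 min of ischemia+reperfusion. There 2 of the 25 rose and 0 fell, against 0.408% of all probe sets called higher and 0.376% lower. The 2 were Pfkfb3, by 1.60 ± 0.23 (limma adjusted p = 0.0173), and Slc2a3, by 1.15 ± 0.17 (adjusted p = 0.0173). At 60 min 4 of 25 rose and 1 fell, against 2.19% of all probe sets called higher and 2.5% lower. At 30 and 60 min Pfkfb3 was also higher in ischemia+reperfusion than in ischemia, by 1.57 ± 0.23 (adjusted p = 0.0217) and 1.43 ± 0.23 (adjusted p = 0.0124), the only member of the list called between the arms. That was 1 of 25 at each time, where 0.532% and 5.38% of all probe sets were called. Slc2a1, which encodes the glucose transporter GLUT1 that Txnip is known to internalise, had its lowest group means at 0 min, 11.19 in ischemia and 11.01 in ischemia+reperfusion, and 11.65 to 11.96 in the other 8 groups. Its rise of 0.74 ± 0.21 at 120 min of ischemia passed (adjusted p = 0.0429, and 0.0517 with no block). At 30 min of ischemia+reperfusion its difference was 0.85 ± 0.21 (adjusted p = 0.102). Slc2a4, the insulin-responsive GLUT4, rose by 0.95 ± 0.15 at 10 min of ischemia (adjusted p = 0.0208, or 0.0761 without the outlying 0 min array) and by 0.52 ± 0.15 at 120 min (adjusted p = 0.0422, and 0.12 with no block). The 120 min call of Slc2a1 was lost without the outlying 0 min array or the 120 min array of preparation 2, duplicate 2 (adjusted p up to 0.0807), and that of Slc2a4 without the outlying array or the 120 min array of preparation 2, duplicate 1 (up to 0.375).

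Of the thioredoxin system, the partners of Txnip, 2 of 25 tested genes were called at 120 min of ischemia, 1 in each direction, where 12.9% of all probe sets were called. Txn1, thioredoxin itself, had group means of 13.23 to 13.36, and its difference at 30 min of ischemia+reperfusion was -0.08 ± 0.05 (adjusted p = 0.512). Prdx5, a peroxiredoxin, rose at 120 min of ischemia by 0.22 ± 0.06 (adjusted p = 0.036, and 0.0576 with no block) and Msrb2, a methionine sulfoxide reductase, fell by 0.40 ± 0.11 (adjusted p = 0.0319, and 0.12 with no block). The Prdx5 call was lost without the 0 min array of preparation 2, duplicate 2, or the 120 min arrays of duplicate 1 of either preparation (adjusted p up to 0.0897), and the Msrb2 call without the 120 min array of preparation 1, duplicate 2 (0.0512). The Prdx5 call was also lost on the deposited scale and with each array scaled to the common median (limma adjusted p up to 0.951). The list's median there was 0.01. At 120 min of ischemia+reperfusion 0 of 25 were called with limma (8 at an unadjusted p under 0.05), with a median of -0.01. Srxn1, the sulfiredoxin that repairs oxidised peroxiredoxins, had the highest differences of the list, 1.24 ± 0.51 at 120 min of ischemia (adjusted p = 0.125) and 1.47, 1.93 and 1.79 (SE 0.51) at 30, 60 and 120 min of ischemia+reperfusion (adjusted p = 0.214, 0.0561 and 0.0591), and did not pass the test. Glrx, a glutaredoxin, was 0.44 ± 0.09 higher in ischemia+reperfusion than in ischemia at 60 min (adjusted p = 0.0257, and 0.0793 with no block), the 1 of 25 called there against 5.38% of all probe sets, and it already stood 0.40 ± 0.09 higher at 0 min (adjusted p = 0.078). Srxn1 and Glrx were named after their values were seen.

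Of the 6 other tested genes with arrestin folds, 1 was called at 120 min of ischemia+reperfusion, lower, where 3.68% of all probe sets were called lower. Vps26a, a subunit of the retromer that sorts endosomal cargo, fell by 0.32 ± 0.07 (adjusted p = 0.0268, and 0.0575 with no block). Arrdc1, another alpha-arrestin, had group means of 9.06 to 9.27 and differed by 0.20 ± 0.14 at 30 min of ischemia+reperfusion (adjusted p = 0.582). Arrb1, the beta-arrestin that desensitises receptors, differed there by 0.48 ± 0.13 (adjusted p = 0.125), and Arrb2 was below the filter. The list's medians were 0.06 at 120 min of ischemia and 0.02 at 120 min of ischemia+reperfusion.

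Among 14 ubiquitin ligases of the NEDD4 family, adaptors and ESCRT partners, 0 were called with limma at 120 min of ischemia (1 at an unadjusted p under 0.05), and Smurf1, a ligase of that family, rose by 0.31 ± 0.08 at 120 min of ischemia+reperfusion (adjusted p = 0.0361, and up to 0.0669 without the 0 min array of preparation 1, duplicate 1, or the 120 min array of preparation 2, duplicate 2). That was 1 of 14, where 3.5% of all probe sets were called higher, and on the deposited scale or with median scaling the call was lost (adjusted p up to 0.388). Hgs, an ESCRT-0 subunit that sorts ubiquitinated cargo, was 0.38 ± 0.06 higher in ischemia+reperfusion than in ischemia at 60 min (adjusted p = 0.0138, up to 0.0369 over the alternatives and up to 0.0183 with any 1 array left out). It was the 1 of 14 called there, against 5.38% of all probe sets. Nedd4 ranged from 12.57 to 12.80 and Wwp1, another ligase that alpha-arrestins recruit, from 8.26 to 8.73 in their group means, with no call in a comparison. Among 10 receptors that are known or candidate cargo, 1 rose and 1 fell at 120 min of ischemia+reperfusion, where 7.17% of all probe sets were called. Igf1r, the IGF-1 receptor, rose by 0.45 ± 0.10 (adjusted p = 0.0252, and 0.0886 with no block) and Adora1, an adenosine receptor, fell by 0.47 ± 0.12 (adjusted p = 0.0406, and 0.418 with no block). The Igf1r call was lost without the 0 min arrays of duplicate 2 of either preparation or the 120 min array of preparation 2, duplicate 1 (adjusted p up to 0.0992), and the Adora1 call without the 0 min array of preparation 1, duplicate 1, the 120 min array of preparation 1, duplicate 2, or that of preparation 2, duplicate 1 (up to 0.325). At 10 min of ischemia Adora1 rose, by 0.54 ± 0.12 (adjusted p = 0.047, and 0.358 with no block), the 1 of 10 called there against 1.98% of all probe sets, and this call too was lost without either 0 min array of preparation 1 or the 10 min array of preparation 2, duplicate 2 (up to 0.0829). Avpr2, the vasopressin V2 receptor, was 0.42 ± 0.07 higher in ischemia+reperfusion than in ischemia at 60 min (adjusted p = 0.0134, and 0.0528 without the ischemia array of preparation 2, duplicate 2), the 1 of 10 called against 5.38% of all probe sets, at group means of 6.72 and 6.29 that lie about the filter. Hgs and Avpr2 were named after their values were seen. Adrb1, the beta-1-adrenergic receptor, differed by -0.59 ± 0.27 at 120 min of ischemia (adjusted p = 0.157) and by -0.47 ± 0.27 at 120 min of ischemia+reperfusion (adjusted p = 0.316).

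Genes under FOXO and insulin control and genes under glucocorticoid control were followed because Txnip is known to respond to both signals. Of 20 FOXO and insulin-responsive genes, 2 rose and 0 fell at 120 min of ischemia (median 0.21), against 6.45% and 6.48% of all probe sets, and 3 rose and 0 fell at 120 min of ischemia+reperfusion (median 0.23), against 3.5% and 3.68%. Ddit4, an inhibitor of the growth kinase complex mTORC1 and a member of both lists, rose by 2.50 ± 0.27 in the former (adjusted p = 0.00116) and by 1.31 ± 0.27 in the latter (adjusted p = 0.0204). It also rose by 1.48 ± 0.27 at 30 min of ischemia+reperfusion (adjusted p = 0.0308). Ccng2, an atypical cyclin, rose by 1.28 ± 0.26 at 120 min of ischemia (adjusted p = 0.014) and Bnip3, a mitophagy receptor, by 1.09 ± 0.25 at 120 min of ischemia+reperfusion (adjusted p = 0.0281). Klf15, a metabolic transcription factor of heart muscle, was 1.04 ± 0.22 lower in ischemia+reperfusion than in ischemia at 60 min (adjusted p = 0.0262).

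Of 15 glucocorticoid-responsive genes, 9 rose and 1 fell at 120 min of ischemia, with a median of 0.72, and 6 rose and 0 fell at 120 min of ischemia+reperfusion, with a median of 0.53. Of all probe sets 6.45% were called higher and 6.48% lower in the former, and 3.5% and 3.68% in the latter. Endothelial markers (4 of 6), fibroblast markers (2 of 11) and a smooth muscle marker (1 of 7) were also called higher at 120 min of ischemia, and their part in the list's change was not tested. The metallothionein Mt2A rose by 1.64 ± 0.36 (adjusted p = 0.0171) and 1.70 ± 0.36 (adjusted p = 0.0221). Tsc22d3, a glucocorticoid-induced leucine zipper protein and among the best known targets, fell by 0.33 ± 0.10 at 120 min of ischemia (adjusted p = 0.0484, and 0.0825 with no block). That call was lost without duplicate 1 of preparation 1 or duplicate 2 of preparation 2 at 0 min, or the 120 min arrays of duplicate 1 of either preparation, each left out alone (adjusted p up to 0.115). Some members that rose at 120 min of ischemia, such as Dusp1, Cebpb and Cebpd, are also known to respond to stress and cytokines. Which signals took part was not tested.

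**Figure D4:**
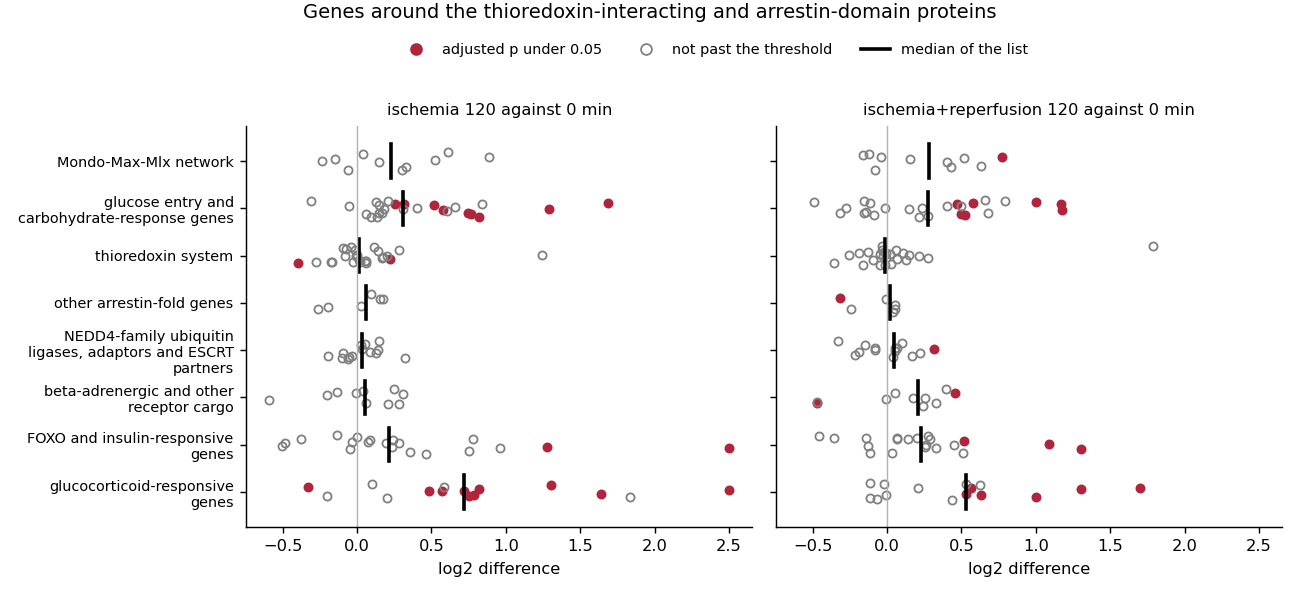
Log2 difference of the tested genes of the 8 lists at 120 against 0 min, for ischemia (left) and ischemia+reperfusion (right); each point is a gene, filled where the limma adjusted p was under 0.05, and the bar is the list's median. The medians are 0.31 and 0.28 for glucose entry and carbohydrate response, 0.72 and 0.53 for glucocorticoid-responsive genes, and 0.01 and -0.01 for the thioredoxin system.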

How the data were processed

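Probe set intensities on a linear scale were used as the authors deposited them; 15.8% were negative, and the sources used here do not give the algorithm, scaling or build. Per the labels' protocols, spin columns gave the RNA, and the hybridized cRNA carried biotin. Values were quantile-normalized over 40 arrays, set to 0 where negative and taken as log2(intensity + 16), which understates differences of dim probe sets. Probe sets above the 40th percentile of the mean (intensity 73.2) were tested, 18625 in all. Duplicates were averaged (n = 2 preparations a group), and 10 groups plus the preparation as a block were fitted with limma 3.58.1 in R 4.3.3 (9 residual degrees of freedom), with two-sided tests and Benjamini-Hochberg adjustment within each comparison at 0.05. Nothing says that samples of a group were separate cultures, so p-values measure only the spread between these samples, which may be technical; the number of arrays limits the precision.

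The preparation numbers come from the labels and run through all groups. Preparation differences correlated by a median of 0.18 (-0.18 to 0.53) over 45 pairs of groups, 34 of them over 0.1. The fit was tested on simulated data with known changes. The members, gene lists and tests were chosen with earlier results of these data known. Genes are named from probe sets with 1 symbol: every member; the 5 most alike and 3 most opposite to Txnip and the 3 most alike for each other member by correlation of group means; from each list the 2 largest called rises and falls at 120 min in each arm; and Mlxip, Mlx, Mlxipl, Slc2a1, Slc2a4, Txn1, Nedd4, Wwp1, Arrb1, Arrb2, Arrdc1, Adrb1, Klf15 and Ddit4. Others named were chosen after their values were seen. The brightest probe set stood for a listed gene. Promoters are from RefSeq (GRCr8), matched by symbol for 3 of 4 members.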

Additional observations from a re-analysis of the deposited data

Results flagged for a closer look

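In 4 of 50 groups of 4 arrays examined (5 probe sets in 10 groups), the highest array stood apart from the other 3 by Dixon's criterion, which chance meets in about 1 group in 20. The Arrdc3 level at 0 min of ischemia+reperfusion was 11.48 on preparation 2, duplicate 2, where the others had 10.01 to 10.22, and the dimmer probe set had 9.66 on that array against 7.53 to 7.89. The Arrdc4 level at 10 min of ischemia+reperfusion was 9.27 on preparation 2, duplicate 1, against 8.04 to 8.20 on the others. The Arrdc2 level at 30 min of ischemia was 6.77 on preparation 2, duplicate 2, against 5.57 to 5.75.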

How the results depend on the processing

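Over 44 values and counts, 420 of 452 alternative values stayed alike, and so did 340 of 352 values with 1 array left out. A difference counted as alike if it moved by less than the spread between arrays, and a count if it stayed within a set factor. A change of sign within that spread still counted as alike unless the difference was called, and the side of the threshold was not compared. Of the 44, 39 were member differences, and 23 of these were over 0.3 in size and kept their sign throughout. The other 16 lay within 0.3 of 0, and it was among these that the sign changed, in 13 of 402 alternative values of all 39 differences and in 25 of 312 with 1 array left out. Against the mean of both 0 min groups, an alternative added after the values were seen, the ischemia+reperfusion differences were -0.40 (10 min) and -0.70 (30 min) for Txnip and -1.15 (30 min) for Arrdc4. On the deposited scale the 30 min ischemia differences were -0.041 for Arrdc3 and -0.79 for Arrdc4, and the arms differed by -0.15 for Arrdc4 at 30 min. The 2 member calls at 30 min of ischemia+reperfusion became 1 with median scaling, a pseudocount of 4 or without the outlying 0 min ischemia array, and 0 without the filter, the replicate block or the 120 min pair; with 1 array left out they ranged from 1 to 2.

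Of the 122 list genes, the 19 that rose at 120 min of ischemia became 8 on the deposited scale, 11 without the replicate block and 34 with each array as a sample. The 2 that fell became 9 on the deposited scale, 8 with each array as a sample and 5 without the 120 min pair. They became 1 with median scaling, without the filter or without the outlying 0 min array, and 0 without the block or without the 10 and 30 min ischemia+reperfusion arrays of preparation 2, duplicate 1; with 1 array left out they ranged from 1 to 5. The 17 that rose at 120 min of ischemia+reperfusion became 3 on the deposited scale, 11 without the filter, 9 without the block and 31 with each array as a sample. The 2 that fell became 0 on the deposited scale or without the block, 4 with median scaling, 6 with each array as a sample and 1 without the outlying array; with 1 array left out they ranged from 1 to 5. On the deposited scale the calls of Slc2a1, Slc2a4 and Prdx5 at 120 min of ischemia were lost. So were those of Mxd1, Pdk1, Vps26a, Smurf1, Igf1r, Adora1 and Bnip3 at 120 min of ischemia+reperfusion. The calls of Adora1 at 10 min of ischemia and, between the arms, of Max at 30 min and Klf15 at 60 min were lost too. The causes were not tested. Quantile normalization assumes like distributions of intensity on all arrays, Arrdc2 lay below the intensity filter, and 2 preparations a group limit the precision.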
